A study of Mus musculus with 8 samples.

Results

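The genes described here encode proteins that write, read or remove marks on DNA and histones, measured on 8 arrays of cells sorted from mouse hair follicles. Members were taken by gene symbol: histone deacetylases (Hdac), sirtuins (Sirt1 to Sirt7), lysine demethylases (Kdm, without Kdm5c, Kdm5d and Kdm6a), DNA methyltransferases (Dnmt1 and Dnmt3), Tet dioxygenases, Cbx readers and Setd proteins. Ezh1, Ezh2, Suz12, Eed, Bmi1, Ring1, Rnf2 and Uhrf1 were added by name. The rule itself uses no measured value, but the genes and lists were chosen with earlier results of these data known. The rule found 63 genes among the 18193 genes measured. Each gene is represented by the probe set with the highest mean over the arrays, and 40 of the 63 have more than 1 probe set.

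The samples came from wild-type (WT) mice and from mice labelled Runx1 iTG, which overexpressed the transcription factor Runx1. All of them, WT included, received doxycycline in the food (1 g per kg) during 1 day before collection. Skin cells were sorted as positive for a K15-GFP reporter and for alpha6 integrin. CD34 then separated bulge cells (positive), the resting stem cell reservoir, from hair germ cells (negative), the small cluster below the bulge. The 4 groups were WT bulge, Runx1 iTG bulge, WT hair germ and Runx1 iTG hair germ, each with 2 arrays, called biological replicates in the labels. All mice were at postnatal day 20, when follicles rest between growth cycles (telogen), except that replicate 2 of each Runx1 iTG group was at day 21. The promoter that drives the Runx1 transgene, and whether bulge and hair germ cells of one replicate number came from the same animals, are not given in the sources used here.

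Runx1 bore out the genotype labels: its scaled intensity was 489 to 903 on the WT arrays and 12103 to 19454 on the Runx1 iTG arrays. Of 9 bulge markers, 8 were lower in the cells labelled hair germ than in the bulge. The 9 include Cd34, whose protein separated the populations in the sort, so that gene is no separate check of the label. The hair germ markers went against the label: 7 of 8 were lower there, Lgr5 among them, and 1, Bmp4, was higher. All 5 measured sebaceous gland markers were higher in the cells labelled hair germ, so that name is used below only as the label of the sort. Of the markers of other cells, 3 of 6 for fibroblasts, 2 of 8 for melanocytes, 1 of 8 for immune cells, 1 of 5 for endothelium and 6 of 6 for suprabasal epidermis were lower in hair germ. Summed fibroblast marker intensity was 4832 to 9159 on the bulge arrays and 249.5 to 699.5 on the hair germ arrays. The part of these other cells in the results below was not tested. Replicate 1 of every group carried a male pattern of sex-linked signals (Eif2s3y at 1852 or more, Xist at 72.5 or less) and replicate 2 the female pattern, so the spread between replicates includes sex. In bulk samples such as these, fewer cells of a type and less RNA per cell cannot be told apart.

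Chromatin modifiers act in linked steps. Polycomb repressive complex 2 (PRC2), built on Ezh2 or Ezh1 with Suz12 and Eed, methylates lysine 27 of histone H3, and polycomb repressive complex 1 (PRC1) reads that mark through a Cbx subunit and ubiquitinates histone H2A through Ring1 or Rnf2. DNA methylation is copied after replication by Dnmt1, which Uhrf1 brings to newly made DNA, is set anew by Dnmt3a and Dnmt3b, and is oxidised by the Tet enzymes. Hdac and Sirt enzymes remove acetyl groups from histones and other proteins, and Kdm enzymes remove methyl groups. In skin, Dnmt1, Uhrf1 and the polycomb proteins are known for keeping epidermal progenitors undifferentiated.

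The promoters of 4 members higher in hair germ are shown because, among the genes below that differed between the populations and had a promoter window, these are the ones with an E2F motif. E2F factors drive genes of DNA replication. The windows run from 250 bases before to 50 bases after the RefSeq start site (mouse build GRCm38.p6), and are written 5′ to 3′ on the strand of the gene. Capitals mark the RUNX motif TGTGGT and the E2F motifs TTCCCGC and TTGGCGC, each searched on both strands.
Uhrf1, chr17:56303087-56303386, plus strand: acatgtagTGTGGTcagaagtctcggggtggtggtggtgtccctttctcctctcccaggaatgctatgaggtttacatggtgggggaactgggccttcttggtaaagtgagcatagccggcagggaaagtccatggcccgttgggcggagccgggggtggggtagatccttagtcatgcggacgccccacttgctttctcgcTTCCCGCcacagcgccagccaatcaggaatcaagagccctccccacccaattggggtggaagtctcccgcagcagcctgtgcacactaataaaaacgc
Dnmt1, chr9:20952574-20952873, minus strand: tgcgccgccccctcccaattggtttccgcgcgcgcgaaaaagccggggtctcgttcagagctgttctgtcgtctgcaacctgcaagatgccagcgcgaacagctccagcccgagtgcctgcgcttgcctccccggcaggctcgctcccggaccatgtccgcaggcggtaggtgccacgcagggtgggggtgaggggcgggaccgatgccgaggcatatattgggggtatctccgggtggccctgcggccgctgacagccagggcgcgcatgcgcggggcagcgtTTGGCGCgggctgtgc
Ezh2, chr6:47594981-47595280, minus strand: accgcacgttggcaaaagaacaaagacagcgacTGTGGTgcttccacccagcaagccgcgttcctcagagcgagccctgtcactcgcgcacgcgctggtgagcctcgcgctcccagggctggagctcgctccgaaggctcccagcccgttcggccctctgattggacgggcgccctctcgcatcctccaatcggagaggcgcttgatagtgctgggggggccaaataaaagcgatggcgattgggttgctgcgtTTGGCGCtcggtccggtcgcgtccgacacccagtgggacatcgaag
Suz12, chr11:79992856-79993155, plus strand: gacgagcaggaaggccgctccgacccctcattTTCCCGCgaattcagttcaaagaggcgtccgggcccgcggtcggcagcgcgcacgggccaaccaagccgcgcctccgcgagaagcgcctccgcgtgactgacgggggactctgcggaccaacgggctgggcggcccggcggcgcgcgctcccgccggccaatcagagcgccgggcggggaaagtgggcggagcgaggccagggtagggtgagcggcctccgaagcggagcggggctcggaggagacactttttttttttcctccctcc
In the Uhrf1 window TGTGGT began 242 bases and TTCCCGC 48 bases before the start site. The Ezh2 window held TGTGGT 217 bases before the start site and TTGGCGC at bases 5 to 11 after it. Dnmt1 had TTGGCGC at bases 35 to 41 after its start site, and Suz12 had TTCCCGC 218 bases before its own. The other windows of Uhrf1 and Dnmt1, at further RefSeq start sites, held neither motif. Promoter windows were found for 53 of the 63 members, 75 windows in all. An E2F motif lay in 9.33% of these windows and in 6.81% of all 32851 windows of the same length, and TGTGGT in 13.3% and 16.8%. Among the members higher in hair germ, 8 had windows, of which 4 genes held an E2F motif and 3 held TGTGGT (Uhrf1, Ezh2 and Kdm2b). Counted by gene, the shares were 13.2% and 17.0% of the members, and 7.79% and 18.9% of all genes with windows. A gene with more windows has more room for a match: the 8 genes have 15 windows, and all 27025 genes have 32851. Counted by window, each motif lay in 26.7% of the 15. Cbx3, Sirt4 and Sirt6, which were not called, also held an E2F motif. None of the 3 lower members held either. A match is a stretch of letters and shows no binding.

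The first question was how the 2 sorted populations differ. Averaged over both genotypes, 9 of the 63 members were higher in hair germ than in bulge and 3 were lower, at an adjusted p under 0.05 in the limma fit over all genes. The higher genes were those of maintenance DNA methylation (Uhrf1, Dnmt1), de novo methylation (Dnmt3b), PRC2 (Ezh2, Suz12), heterochromatin protein 1 (Cbx5), the demethylase Kdm2b and the deacetylases Hdac3 and Hdac11. The lower genes were the polycomb readers Cbx6 and Cbx7 and the deacetylase Hdac7. Over all genes, 18.3% passed this test (9.17% higher and 9.11% lower), so the 12 members (19%) lie near the background, with 14.3% higher and 4.76% lower. The members spread less than genes at large: their median absolute log2 difference was 0.32, against 0.52 over all genes, and 12.7% of them differed by more than 1, against 24.6%. This gap is not particular to the populations. In the interaction described below, in which 0 genes passed, the medians were 0.22 and 0.47, and 9.52% and 24.8% exceeded 1. The part of dim genes in the gap was not tested. Their median signed difference was -0.03, beside -0.09 over all genes. All 4 hair germ arrays lay above all 4 bulge arrays for 10 members and below for 3, where 10.8% and 11.6% of all genes did so. The count of 12 fell to 5 without WT bulge replicate 2, and to 7 without WT bulge replicate 1, WT hair germ replicate 2 or Runx1 iTG hair germ replicate 1.

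**Figure D1:**
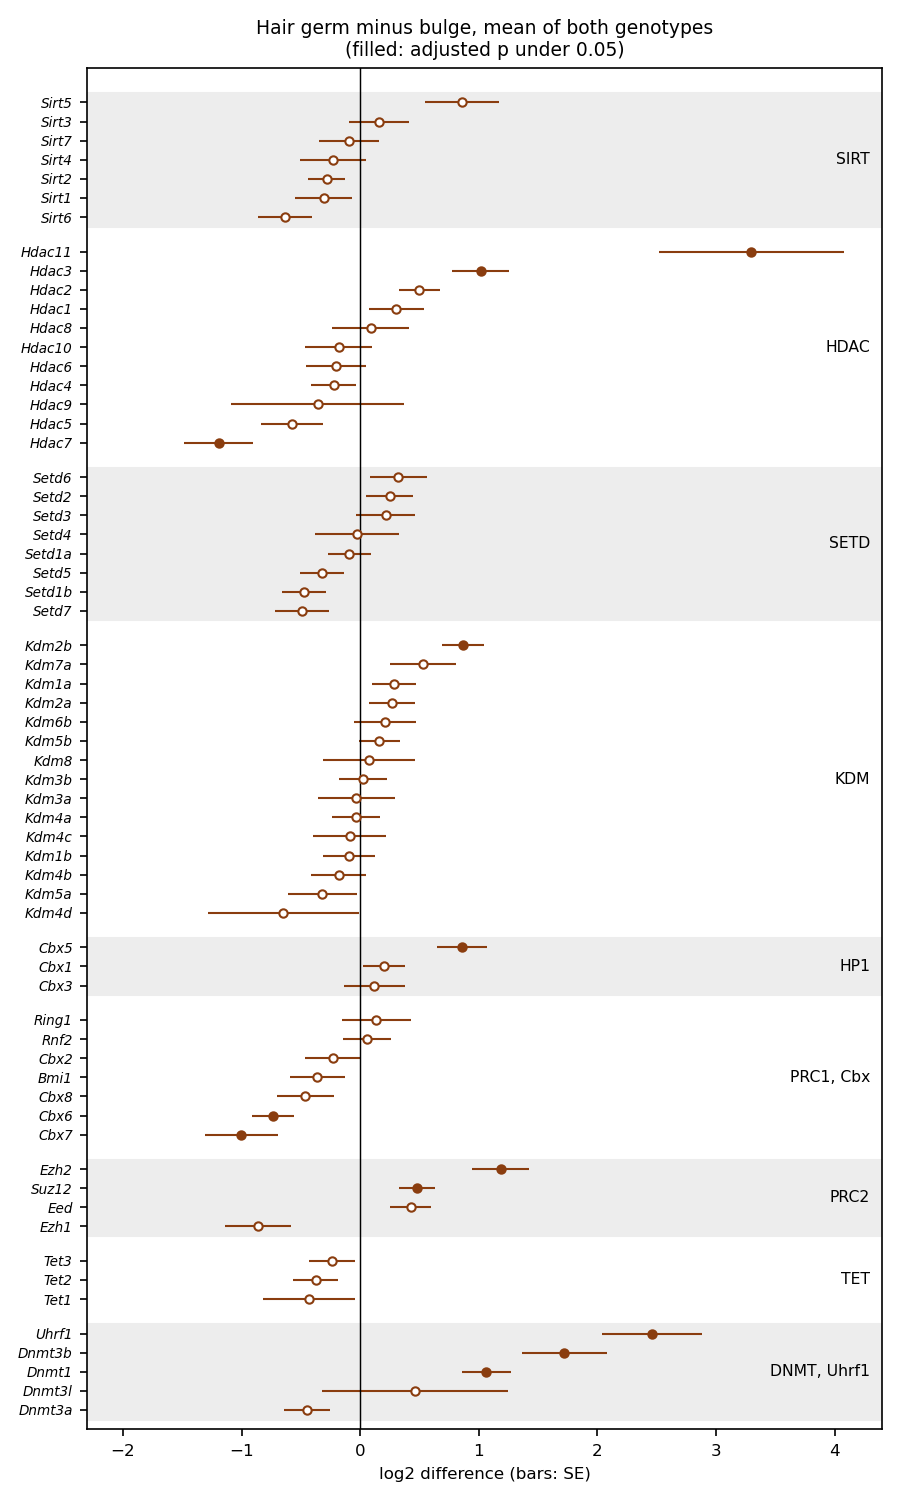
Log2 difference of hair germ minus bulge, averaged over both genotypes, for the 63 genes grouped by role, with bars of 1 standard error from 8 arrays; filled points have an adjusted p under 0.05. The 12 filled points run from Hdac7 at -1.19 to Hdac11 at 3.30, and no gene of the Tet, Setd or sirtuin families is filled.

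Uhrf1 recognises hemimethylated DNA behind the replication fork. Its scaled intensity was 1088 and 334 on the WT bulge arrays, 1059 and 332 on the Runx1 iTG bulge arrays, 3120 and 3966 in WT hair germ, and 3749 and 2534 in Runx1 iTG hair germ. All hair germ arrays lay above all bulge arrays, and replicate 1 was the higher bulge array in both genotypes. The log2 difference was 2.46 (SE 0.42, 5.51-fold, adjusted p = 0.00302, n = 4 arrays against 4 in the limma fit). Dnmt1, the maintenance methyltransferase, stood at 1698 and 1146 in WT bulge, 1884 and 1208 in Runx1 iTG bulge, 2839 and 3256 in WT hair germ, and 3494 and 2625 in Runx1 iTG hair germ. These groups do not overlap either, and replicate 1 was again the higher bulge array. Its difference was 1.06 (SE 0.21, 2.09-fold, adjusted p = 0.00624). Dnmt3b, a de novo methyltransferase, was dim in bulge, at 74.4 and 84.8 in WT and 142 and 72.8 in Runx1 iTG. In hair germ it was at 424 and 291 in WT and 295 and 213 in Runx1 iTG, above every bulge array. The difference was 1.72 (SE 0.36, 3.30-fold, adjusted p = 0.00807). Dnmt3a, the other de novo enzyme, went the other way in value, at 2028 to 3368 in bulge and 1842 to 2057 in hair germ, and missed the threshold (log2 difference -0.45, SE 0.19, adjusted p = 0.144). Dnmt3l, a catalytically inactive partner of Dnmt3a and Dnmt3b, was at 5.07 to 94.4 and was below background in the mean of 1 group. The calls of Uhrf1, Dnmt1 and Dnmt3b held when any single array was left out. That of Dnmt1 was lost without the intensity trend of the fit (adjusted p = 0.0547), and that of Dnmt3b with day 20 arrays only (adjusted p = 0.0555).

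Tet1, Tet2 and Tet3 all had negative differences, between -0.43 and -0.24, with none past the threshold (lowest adjusted p 0.216). Tet2 was at 1231 to 1686 in bulge and 875 to 1346 in hair germ, so the populations overlapped.

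Among the PRC2 genes, Ezh2, the methyltransferase subunit, had an intensity of 571 and 421 in WT bulge and 756 and 417 in Runx1 iTG bulge. In hair germ it was 1083 and 1413 in WT and 1212 and 1091 in Runx1 iTG. No bulge array reached the lowest hair germ array. The difference was 1.18 (SE 0.24, 2.27-fold, adjusted p = 0.00707), and it stayed past the threshold without any single array, though not with day 20 arrays only (1.01, adjusted p = 0.0645). Suz12, which holds the complex together, was at 1374 to 1588 in bulge, at 1785 and 1788 in WT hair germ and at 2265 and 2288 in Runx1 iTG hair germ. Its replicates lay close together and the populations did not overlap, but the difference was small (0.48, SE 0.15, 1.39-fold, adjusted p = 0.0494). Leaving out any single array put the adjusted p of Suz12 at 0.0596 to 0.121, and it was 0.0665 with replicate number as a block. Eed, which reads the mark that PRC2 makes, was at 1154 to 1562 in bulge and 1513 to 1906 in hair germ (difference 0.43, SE 0.17, adjusted p = 0.126). Ezh1, the second methyltransferase of PRC2, had the opposite sign to Ezh2. It was at 901 and 1476 in WT bulge, 769 and 1477 in Runx1 iTG bulge, 699 and 782 in WT hair germ and 387 and 655 in Runx1 iTG hair germ. The difference of -0.86 (SE 0.28) lay just outside the threshold (adjusted p = 0.061) and passed with replicate number as a block (adjusted p = 0.0165). The lowest bulge array (769) lay under the highest hair germ array (782).

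Ring1 and Rnf2, the ubiquitin ligase subunits of PRC1, and Bmi1, their partner, had differences between -0.36 and 0.14 with no call. Cbx7, a reader of lysine 27 methylation, was at 896 and 634 in WT bulge and 617 and 1449 in Runx1 iTG bulge. It was at 525 and 304 in WT hair germ and 443 and 447 in Runx1 iTG hair germ. Every hair germ array lay below every bulge array, although the bulge arrays spread widely. Cbx7 differed by -1.001 on the log2 scale (SE 0.31, 2.002-fold lower, adjusted p = 0.0484). Its adjusted p was 0.0916 to 0.173 without either WT bulge array, WT hair germ replicate 2, Runx1 iTG bulge replicate 2 or either Runx1 iTG hair germ array, each left out singly, and the difference was -0.69 without Runx1 iTG bulge replicate 2. With replicate number as a block the adjusted p was 0.0564. Cbx6, another polycomb reader, was at 3071 and 3950 in WT bulge, 4156 and 4815 in Runx1 iTG bulge, 1656 and 2184 in WT hair germ, and 3367 and 2596 in Runx1 iTG hair germ. Within each genotype the populations did not overlap, while across genotypes they did. The difference was -0.74 (SE 0.18, 1.66-fold, adjusted p = 0.0165), and the adjusted p was 0.0628 to 0.0737 without WT bulge replicate 2, WT hair germ replicate 1, Runx1 iTG bulge replicate 2 or Runx1 iTG hair germ replicate 2. Cbx2 and Cbx8 had differences of -0.23 and -0.46 and did not pass. These 4 polycomb Cbx genes all had negative differences, with 2 past the threshold, where 9.11% of all genes were called lower.

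The other Cbx proteins form heterochromatin protein 1, which binds methylated lysine 9 of histone H3. Cbx5 (HP1 alpha) was at 1448 and 1266 in WT bulge, 1379 and 1133 in Runx1 iTG bulge, 1917 and 3032 in WT hair germ, and 2881 and 1850 in Runx1 iTG hair germ. The populations did not overlap, and hair germ replicates differed more than bulge replicates. The difference was 0.86 (SE 0.21, 1.81-fold, adjusted p = 0.0199), with an adjusted p of 0.0505 to 0.0879 without either WT bulge array, WT hair germ replicate 2, Runx1 iTG bulge replicate 2 or Runx1 iTG hair germ replicate 1. Cbx1 (HP1 beta) and Cbx3 (HP1 gamma) had differences of 0.20 and 0.12 and did not pass.

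Of the 11 class I, II and IV deacetylases, 2 were higher in hair germ, 1 was lower and 8 did not pass. By the same test 9.17% of all genes were higher and 9.11% lower. Hdac3, the catalytic subunit of the NCoR and SMRT corepressors, was at 1189 and 937 in WT bulge, 1140 and 924 in Runx1 iTG bulge, 1407 and 2352 in WT hair germ, and 3202 and 1851 in Runx1 iTG hair germ. The populations did not overlap. The difference was 1.02 (SE 0.24, 2.02-fold, adjusted p = 0.0157). Hdac11, the single class IV enzyme, had the largest difference of the members and the widest spread. Its intensity was 128 and 155 in WT bulge, 29.6 and 174 in Runx1 iTG bulge, 353 and 5246 in WT hair germ, and 797 and 646 in Runx1 iTG hair germ. One WT hair germ array was far above the other, and 1 Runx1 iTG bulge array was below background. The difference was 3.30 (SE 0.78, 9.84-fold, adjusted p = 0.0158), and 2.33 without the bright WT hair germ array (adjusted p = 0.0425). Hdac7, a class IIa enzyme, was at 1010 and 886 in WT bulge, 644 and 687 in Runx1 iTG bulge, 437 and 456 in WT hair germ, and 432 and 168 in Runx1 iTG hair germ. Each hair germ array lay below each bulge array, and Hdac7 differed by -1.19 (SE 0.29, 2.29-fold, adjusted p = 0.0185). The 3 calls depended on single arrays. The adjusted p of Hdac3 was 0.0673 to 0.0771 without WT bulge replicate 2, WT hair germ replicate 2, Runx1 iTG bulge replicate 2 or Runx1 iTG hair germ replicate 1. That of Hdac11 was 0.0637 to 0.0708 without either WT bulge array or replicate 1 of either Runx1 iTG group, and that of Hdac7 was 0.0507 to 0.071 without any single array of WT bulge, WT hair germ or Runx1 iTG bulge. Hdac1 and Hdac2, the class I partners in the Sin3 and NuRD complexes, had differences of 0.31 (SE 0.23) and 0.50 (SE 0.18, adjusted p = 0.0806). Hdac5 differed by -0.57 without overlap between the populations and did not pass (adjusted p = 0.173). Hdac9 was below background in every group.

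No sirtuin passed over both genotypes by the probe set that stands for its gene. Under other settings Sirt5 did pass, with quantile normalization or without the intensity trend of the fit. Sirt6, a nuclear deacetylase, was at 783 to 1528 in bulge and 690 to 884 in hair germ (-0.63, SE 0.23, adjusted p = 0.0881). Sirt5, a mitochondrial enzyme that removes succinyl and malonyl groups, differed by 0.86 (SE 0.31, adjusted p = 0.0885), and this mean covers unlike values in the genotypes, given below.

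Among the 15 lysine demethylases, Kdm2b was the only one to pass, where 18.3% of all genes passed. Kdm2b recognises unmethylated CpG islands and recruits a form of PRC1 to them. It was at 1077 and 749 in WT bulge, 938 and 948 in Runx1 iTG bulge, 1358 and 1395 in WT hair germ, and 2120 and 1972 in Runx1 iTG hair germ. The populations did not overlap, and the Runx1 iTG hair germ arrays were the highest. The difference was 0.87 (SE 0.18, 1.82-fold, adjusted p = 0.00735), and the call held without any single array. It was lost without the intensity trend of the fit (adjusted p = 0.05 when rounded) and with day 20 arrays only (difference 0.90). Kdm2a, its paralog, differed by 0.27 (SE 0.19). The remaining demethylases lay between -0.65 and 0.53, the lower end being Kdm4d, which was below background on all 8 arrays. The 8 Setd genes, most of them lysine methyltransferases, lay between -0.49 (Setd7) and 0.32 (Setd6), and none passed (lowest adjusted p 0.114, Setd1b).

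**Figure D2:**
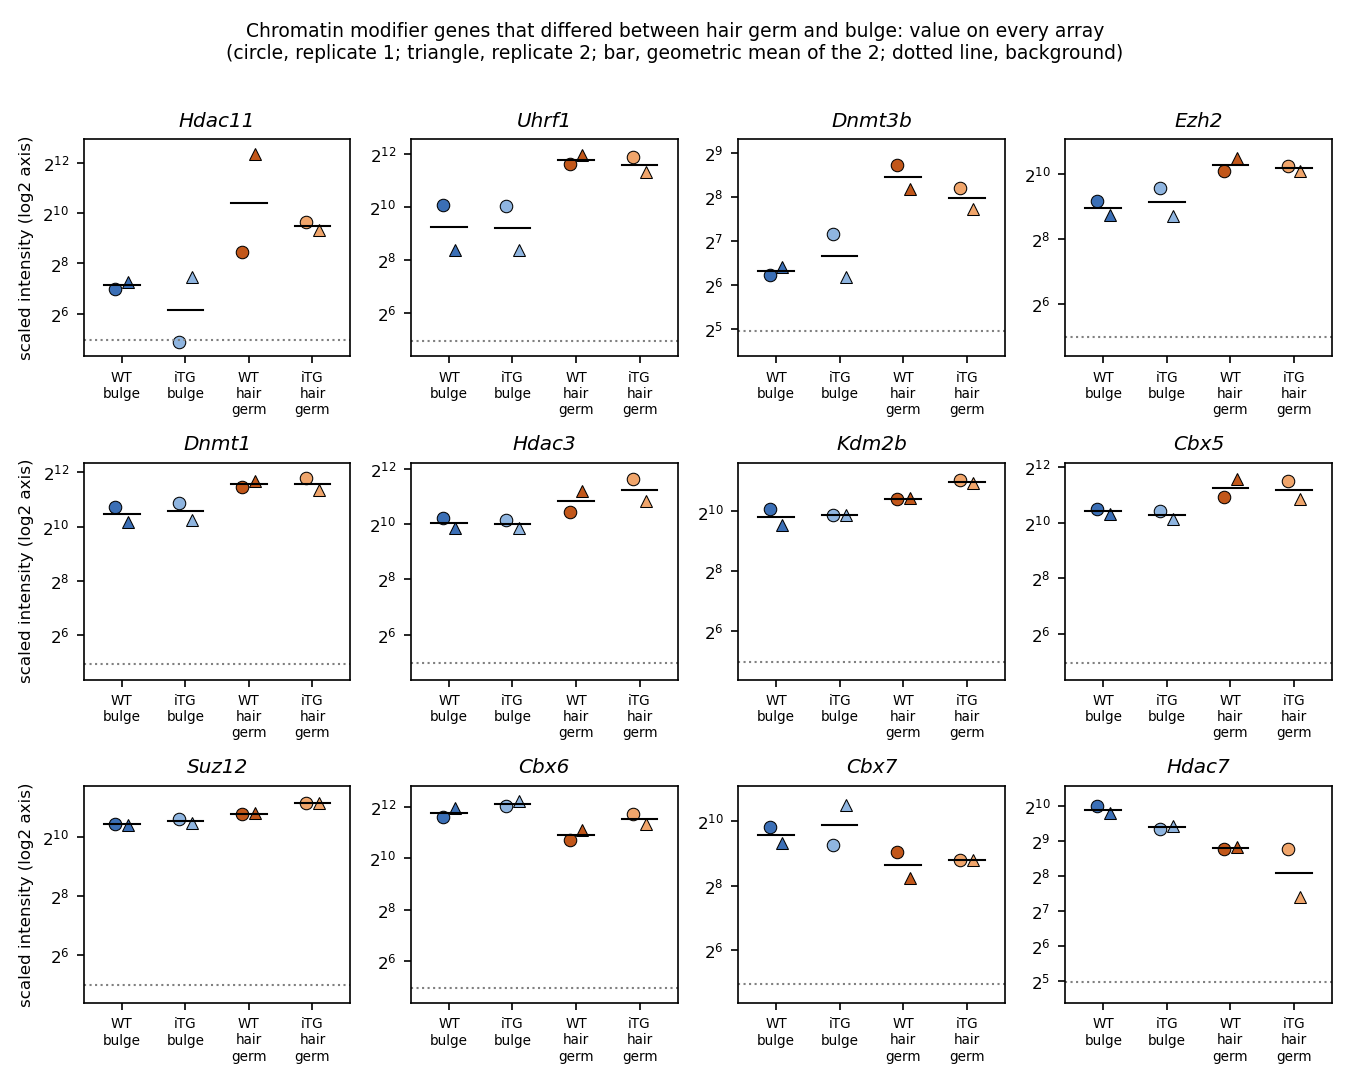
Scaled intensity (log2 axis) of the 12 genes past the threshold on each of the 8 arrays, by group, with circles for replicate 1, triangles for replicate 2, a bar at the geometric mean and a dotted line at background (31.1). For Uhrf1, Dnmt1 and Ezh2 replicate 1 is the higher bulge array in both genotypes, and Hdac11 spans 353 to 5246 within WT hair germ.

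The bulge replicates differed in proliferation genes and in some of the members. Of 19 proliferation genes measured, 17 were higher in hair germ, with a median difference of 1.85, and their summed intensity was 42068 to 59795 on the hair germ arrays. On the bulge arrays that sum was 22247 and 21764 in replicate 1, and 10842 and 11522 in replicate 2. Uhrf1 in bulge was 3.26 times higher in replicate 1 than in replicate 2 in WT and 3.19 times in Runx1 iTG. For Mki67, a marker of cycling cells, the ratios were 2.90 and 3.03. For the proliferation genes Top2a and Ccna2 they were 5.68 and 6.79, and 2.82 and 3.19. For Ezh2 they were 1.36 and 1.81, and for Dnmt1 1.48 and 1.56. The other called genes were mixed. Ratios were above 1 in both genotypes for Cbx5 (1.14 and 1.22), Hdac3 (1.27 and 1.23) and Suz12 (1.02 and 1.11), and below 1 in both for Cbx6 (0.777 and 0.863) and Hdac11 (0.828 and 0.17). They lay on either side of 1 for Dnmt3b (0.877 and 1.95), Kdm2b (1.44 and 0.99), Cbx7 (1.41 and 0.426) and Hdac7 (1.14 and 0.938). Ezh1 had ratios below 1, at 0.611 and 0.52. The part of cell cycle differences in these results was not tested. Between hair germ and bulge arrays of the same replicate number, averaged over the genotypes, Uhrf1 differed by 3.25 in replicate 2 and 1.67 in replicate 1. The values were 1.57 and 0.80 for Ezh2, 2.47 and 0.73 for Mki67, 3.49 and 0.69 for Top2a, and 1.66 and 1.78 for Dnmt3b. In size, 11 of the 12 called genes differed more in replicate 2, and Dnmt3b was the exception. The lower gene Cbx7 was at -1.38 in replicate 2 and -0.62 in replicate 1.

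Other probe sets of the same genes gave a second reading. The 12 genes have 31 probe sets, of which 30 were above background. All 30 had the sign given above, and 21 passed at an adjusted p under 0.05 over all probe sets. The 3 probe sets of Dnmt1 agreed closely (0.96 to 1.16), as did the 4 bright ones of Cbx5 (0.86 to 0.97). The 6 probe sets of Suz12 ranged from 0.48 to 0.80, with 4 past the threshold. For Uhrf1 the second probe set gave 0.52 in place of 2.46 and did not pass (adjusted p = 0.198). That of Hdac11 gave 1.17 in place of 3.30, and that of Dnmt3b 0.81 in place of 1.72. Neither passed (adjusted p = 0.188 and 0.128). The second Hdac11 probe set was at 90.1 and 61.4 in WT hair germ, where the first was at 353 and 5246. It overlapped WT bulge, at 22.9 and 100. The size of the Uhrf1, Hdac11 and Dnmt3b differences therefore depended on the probe set. The 3 probe sets of Cbx7 ranged from -1.40 to -0.71. Ezh2 and Hdac3 had 1 probe set each.

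**Figure D3:**
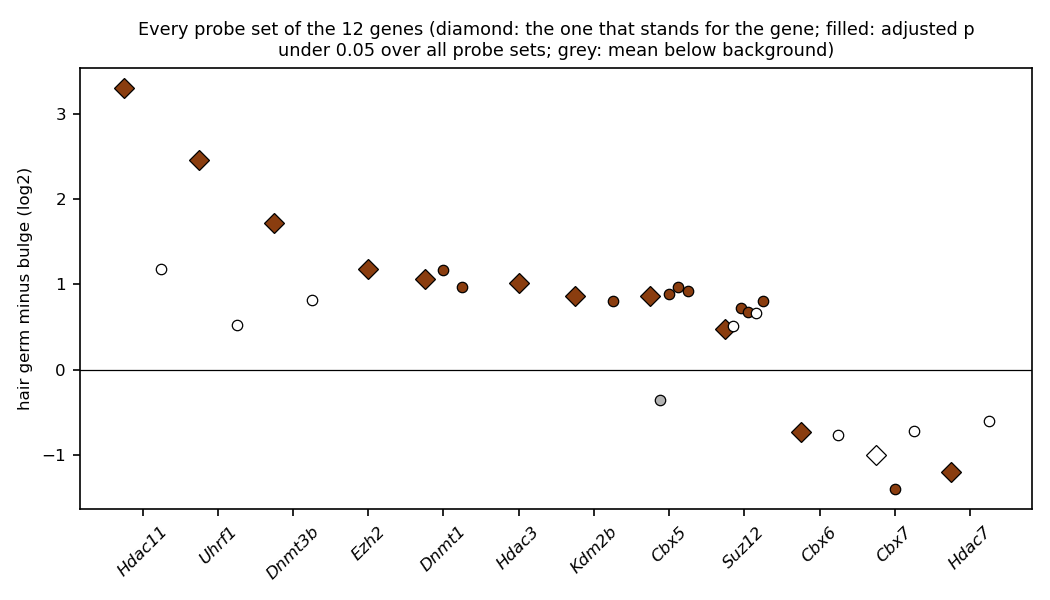
Log2 difference of hair germ minus bulge for each of the 31 probe sets of the 12 genes, with a diamond for the probe set that stands for the gene, filled points for an adjusted p under 0.05 over all probe sets and grey for a mean below background. The 30 probe sets above background share the sign of their gene, and those of Uhrf1 lie apart at 2.46 and 0.52.

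Within WT alone, 3 of the 63 members were higher in hair germ and 0 lower, which is 4.76% of members beside 6.93% of all genes (3.14% higher and 3.79% lower). These were Dnmt3b (2.15, SE 0.50, adjusted p = 0.0321), Uhrf1 (2.54, SE 0.60, adjusted p = 0.0322) and Ezh2 (1.34, SE 0.34, adjusted p = 0.0436). At an unadjusted p under 0.05 the count was 12 of the 63 members, beside 3830 of 18193 genes. Dnmt1 lay just outside (1.12, SE 0.30, adjusted p = 0.0517), as did Cbx6 (-0.87, SE 0.25, adjusted p = 0.0679). Hdac11 (3.27), Cbx8 (-0.995), Hdac7 (-1.08), Cbx7 (-0.92) and Sirt6 (-0.65) had arrays that did not overlap, and did not pass. Arrays did not overlap for 18 members in the higher and 16 in the lower direction, where 23% and 28.8% of all genes did so. The count of 3 became 0 without WT bulge replicate 2, WT hair germ replicate 2 or Runx1 iTG hair germ replicate 1, and 1 without WT bulge replicate 1, WT hair germ replicate 1 or Runx1 iTG hair germ replicate 2. With replicate number as a block the count was 5, with Dnmt1 (adjusted p = 0.0334) and Hdac11 (0.0485) added.

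Within Runx1 iTG, 4 members were higher and 0 lower, or 6.35% beside 9.76% of all genes (4.5% higher and 5.26% lower). They were Kdm2b (1.12, SE 0.25, adjusted p = 0.0200), Uhrf1 (2.38, SE 0.60, adjusted p = 0.0337), Sirt5 (1.70, SE 0.44, adjusted p = 0.0381) and Hdac3 (1.25, SE 0.34, adjusted p = 0.0461). At an unadjusted p under 0.05 the count was 19 members, beside 4188 of 18193 genes. Ezh2 differed by 1.03 (SE 0.34, adjusted p = 0.0891) and Cbx7 by -1.09 (SE 0.43, adjusted p = 0.162). Dnmt1 (1.01), Hdac7 (-1.30), Ezh1 (-1.08), Setd1b (-0.83), Setd7 (-0.82) and Setd5 (-0.66) had arrays that did not overlap, and did not pass. Further probe sets gave 0.05 for Setd7 and 0.02 and 0.006 for Setd5, and kept the sign for Dnmt1, Hdac7, Ezh1 and Setd1b. In all, 15 members were without overlap in the higher and 17 in the lower direction, beside 23.9% and 27.6% of all genes. By the probe set that stands for the gene, and with no setting changed, Sirt5 passed in this one of the 7 comparisons. It was at 125 and 148 in WT bulge, 107 and 90.2 in Runx1 iTG bulge, 129 and 147 in WT hair germ, and 336 and 303 in Runx1 iTG hair germ. The 2 Runx1 iTG hair germ arrays stand above the other 6, which lie close together. Its adjusted p was 0.0536 to 0.206 without any single array, and 0.0507 with replicate number as a block. A second probe set of Sirt5 was at 29.0 and 31.1 in Runx1 iTG bulge, 350 and 317 in Runx1 iTG hair germ, and 95.1 to 126 on the WT arrays. It passed in Runx1 iTG (3.47, adjusted p = 0.00363) and over both genotypes (1.77, adjusted p = 0.00891), with p-values adjusted over all probe sets. Both Runx1 iTG bulge arrays of that probe set lay just under background (31.1 when rounded). The count of 4 became 1 or 2 when a bulge array or a Runx1 iTG hair germ array was left out. With the block, Dnmt1 (adjusted p = 0.0413), Hdac11 (0.037) and, lower, Ezh1 (0.0433) passed as well.

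The differences in the 2 genotypes come from separate arrays. Their signs matched for 48 of the 63 members (76.2%), beside 70.4% of all genes, and Pearson's r across members was 0.73, beside 0.59 across all genes. These are descriptions across genes, which are not independent replicates. Uhrf1, at 2.54 in WT and 2.38 in Runx1 iTG, lay close to equality. The means of Hdac11 were 3.27 and 3.32, but its arrays spread too widely to compare them. Between arrays of the same replicate number Hdac11 differed by 1.46 and 5.08 in WT and by 4.75 and 1.89 in Runx1 iTG. Dnmt3b was at 2.15 in WT and 1.30 in Runx1 iTG. Cbx8 (-0.995 and 0.07), Sirt5 (0.01 and 1.70) and Hdac10 (0.55 and -0.91) lay far from equality, and the test of these gaps is the interaction given below. The second probe set of Cbx8 gave -0.34 in WT and -0.69 in Runx1 iTG.

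**Figure D4:**
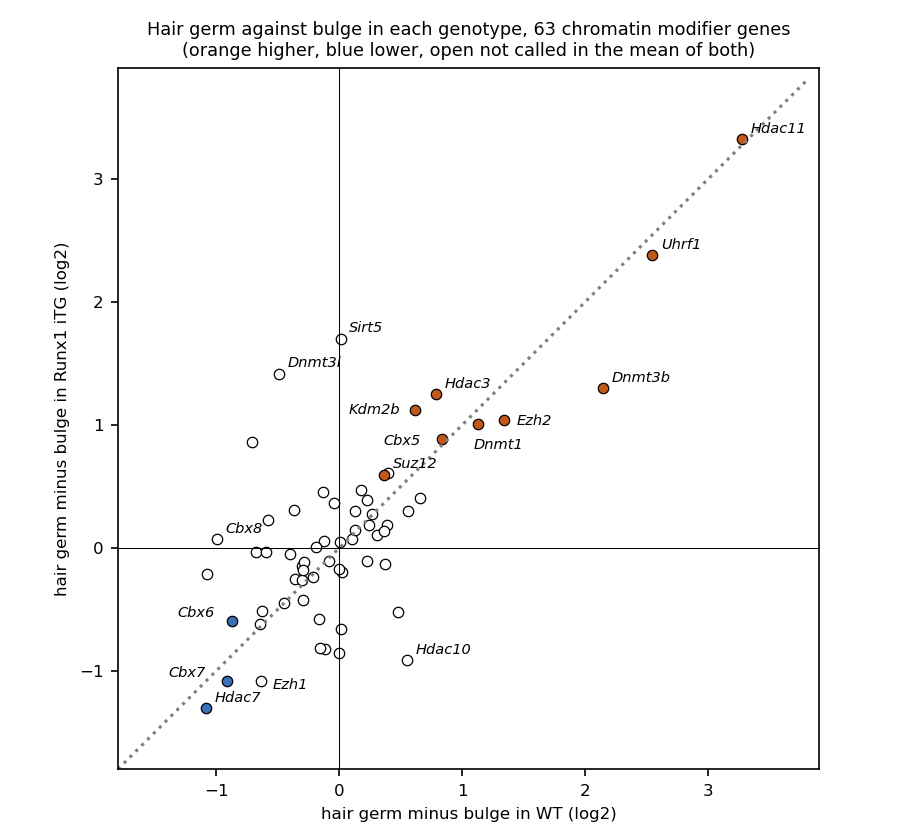
Log2 difference of hair germ minus bulge in WT (horizontal axis) and in Runx1 iTG (vertical axis) for the 63 genes, with orange for genes called higher and blue for genes called lower over both genotypes, and a dotted line of equality. Uhrf1 lies at 2.54 and 2.38 near the line, and Sirt5 lies at 0.01 on the WT axis and 1.70 on the Runx1 iTG axis.

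The second question was whether raised Runx1 changed these genes. In bulge, 0 of 63 members passed in the limma fit, and 0.022% of all genes passed. An unadjusted p under 0.05 was reached by 4 members, beside 1084 of 18193 genes. Setd7, a lysine methyltransferase, had the smallest adjusted p. It was at 1384 and 1307 in WT bulge and 3518 and 1771 in Runx1 iTG bulge, without overlap (0.89, SE 0.32, adjusted p = 0.758). Hdac10, a polyamine deacetylase, was at 145 and 189 in WT and 299 and 376 in Runx1 iTG (1.02, SE 0.40, adjusted p = 0.781). Cbx8 was at 767 and 631 in WT and 366 and 404 in Runx1 iTG (-0.86, SE 0.34, adjusted p = 0.781). A second Cbx8 probe set, also above background, had the opposite sign (0.15). Kdm8 was at 303 and 153 in WT and 84.5 and 94.9 in Runx1 iTG (-1.26, SE 0.55, adjusted p = 0.81). In these 4 genes the arrays of the genotypes did not overlap. Nor did they for Setd5 (0.48), Setd4 (0.90), Cbx6 (0.36), Hdac4 (-0.40), Kdm4b (-0.48) and Kdm4a (-0.41). Further probe sets above background had the opposite sign for Setd5 (-0.28 and -0.24) and Cbx6 (-0.11), and either sign for Setd4 (0.64 and -0.49). They kept the sign for Setd7 (0.24), Hdac4 (-0.11 and -0.13) and Kdm4a (-0.05). In all, 12 members were without overlap in the higher and 8 in the lower direction, beside 17.3% and 16.4% of all genes.

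In hair germ, 0 of 63 members passed, and 0.0275% of all genes passed (0.0165% higher and 0.011% lower). An unadjusted p under 0.05 was reached by 3 members, beside 1233 of 18193 genes. Those 3 were Sirt5 (1.22, SE 0.44, adjusted p = 0.624), Cbx6 (0.64, SE 0.25, adjusted p = 0.65) and Kdm2b (0.57, SE 0.25, adjusted p = 0.72), and their array values are given above. Sirt3, the main mitochondrial deacetylase, was at 313 and 317 in WT and 508 and 536 in Runx1 iTG (0.73, SE 0.36). Sirt7, a nucleolar enzyme, was at 521 and 462 in WT and 864 and 658 in Runx1 iTG (0.62, SE 0.35). Of the 7 sirtuins, 6 had positive values and 0 passed. Hdac7 (-0.73), Ezh1 (-0.56), Hdac10 (-0.45), Hdac4 (-0.42) and Setd1b (-0.36) were lower in value without overlap. Arrays did not overlap for 13 members in the higher and 7 in the lower direction, beside 19.9% and 15.8% of all genes.

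Neither Ezh2 nor Cbx7 passed for genotype. Ezh2 differed by 0.20 in bulge (95% interval -0.56 to 0.95) and by -0.11 in hair germ (-0.86 to 0.65). Cbx7 differed by 0.33 in bulge (-0.64 to 1.30) and by 0.16 in hair germ (-0.81 to 1.13). The intervals hold differences of either sign, so these data do not show that the genotypes were alike. Over all members, the 95% interval lay wholly between -1 and 1 for 31 genes in bulge and 28 in hair germ. Signs matched between bulge and hair germ for 38 members (60.3%, beside 55.1% of all genes), with r = 0.12 across members and 0.10 across all genes.

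**Figure D5:**
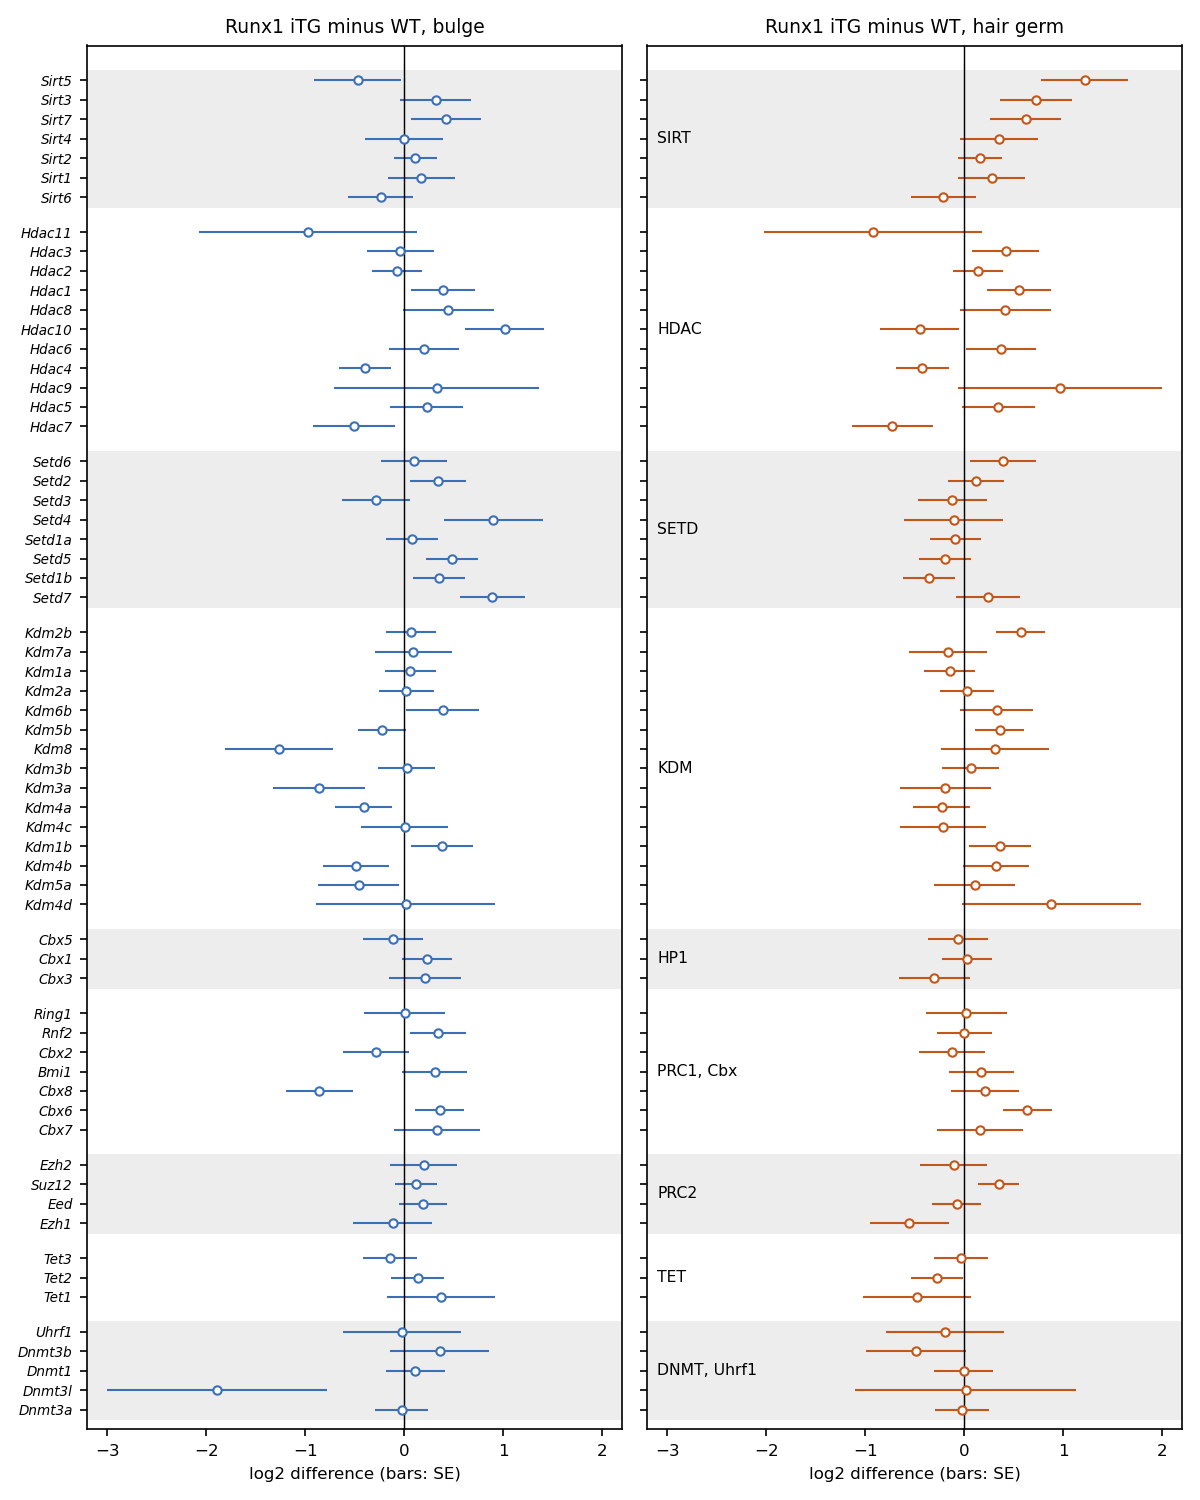
Log2 difference of Runx1 iTG minus WT in bulge (left) and hair germ (right) for the 63 genes in the order of the plot by role, with bars of 1 standard error; open points did not pass, and no point is filled. The smallest unadjusted p belongs to Setd7 (0.89) on the left and Sirt5 (1.22) on the right, and the farthest point on the left is Dnmt3l at -1.89, which is below background in 1 group.

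Averaged over both populations, 0 members passed for genotype, beside 0.0495% of all genes (0.033% higher and 0.0165% lower). An unadjusted p under 0.05 was reached by 2 members, beside 1456 of 18193 genes. Those 2 were Cbx6 (0.50, SE 0.18, adjusted p = 0.49) and Setd7 (0.56, SE 0.23, adjusted p = 0.571). Kdm1b, a demethylase of histone H3 lysine 4, was the one member whose 4 Runx1 iTG arrays (574 to 673) all lay above the 4 WT arrays (359 to 570), with a difference of 0.37 (SE 0.22, adjusted p = 0.739), and no member lay wholly below. Of all genes, 1.47% lay wholly above and 1.07% wholly below. Here the 95% interval lay between -1 and 1 for 49 of 63 members. The interaction asks whether the genotype difference itself differed between hair germ and bulge. In it 0 members passed and 0 of all genes passed in the limma fit. An unadjusted p under 0.05 was reached by 839 of 18193 genes, 2 members among them. Those 2 members were Sirt5 (1.69, SE 0.62) and Hdac10 (-1.47, SE 0.56), each with an adjusted p of 1. Cbx8 (1.06, SE 0.48) and Kdm8 (1.57, SE 0.78) followed, though the second probe set of Cbx8 gave -0.35.

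Partner genes of these complexes were read from lists chosen by function. Of 21 polycomb partners measured, 3 were higher in hair germ and 2 lower over both genotypes, where 18.3% of all genes passed (9.17% higher and 9.11% lower). Pcgf5, a subunit of variant PRC1, was at 478 to 684 on the bulge arrays and 2263 to 2700 on the hair germ arrays (2.02, SE 0.17, adjusted p = 3.58e-05). Pcgf6, another variant PRC1 subunit, differed by 1.12 (adjusted p = 0.0114) and Rbbp7, a histone-binding subunit shared by PRC2 and NuRD, by 0.64 (adjusted p = 0.0307). Phf1, an accessory PRC2 subunit (-1.06, adjusted p = 0.0229), and Pcgf2, which pairs with the Cbx readers in canonical PRC1 (-0.56, adjusted p = 0.0329), were lower. Of 10 genes of the MLL complexes, which methylate lysine 4 of histone H3, Dpy30 was higher (0.86) and Kmt2a lower (-0.69). Of 14 other histone methyltransferases 3 were higher, Smyd2 (1.496), Suv39h2 (1.20) and the lysine 79 enzyme Dot1l (0.60). Hat1, which acetylates newly made histone H4, was higher (1.11) as the only one of 13 acetyltransferases to pass. Smarcc1 (0.72) and Actl6a (1.17) were higher among 16 genes of the SWI/SNF remodelling complex, and Sin3b (0.64) among 12 corepressor partners. For genotype and the interaction, 0 genes of these lists passed in the limma fit. An unadjusted p under 0.05 was reached by 0 to 2 genes per list, beside 839 to 1456 of 18193 genes.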

How the data were processed

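Total RNA of 8 sorted samples was amplified from 5 ng with the NuGEN Ovation Pico WTA system, labelled with biotin, per the labels, and hybridised to Affymetrix Mouse Genome 430 2.0 arrays. The authors deposited a linear intensity for 45101 probe sets. Every deposited array has a mean of 500 once its top and bottom 2% are left out, and a lowest value of 1. The summarising program is a detail not given in the sources used here. After 64 control probe sets were removed, each array was brought to the same 75th percentile, a floor of 2.41 was set (3.48% of values lay under it), and values were put on the log2 scale. In the platform annotation 34945 probe sets had 1 symbol, 932 several (left unnamed) and 9160 none. Background (31.1) is the 95th percentile of 27 bacterial control probe sets. Between 69.0% and 77.0% of probe sets exceeded it on each array, and 59 of the 63 genes did so on all 8 arrays.

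One limma 3.58.1 model (R 4.3.3) took all 8 arrays and all genes, with 1 mean for each group, an intensity trend, 4 residual degrees of freedom (9.87 after moderation) and Benjamini-Hochberg adjustment over 18193 genes. Every adjusted p and 95% interval comes from it unless another setting is named. P-values measure the spread among 2 biological replicates per group, and the number of arrays limits precision (median SE of the 63 genes 0.34 for a difference between 2 groups). Named genes are Ezh2, Cbx7, every gene past the threshold in any of 7 comparisons, and up to 5 per direction in each comparison by unadjusted p whose arrays do not overlap. Partner genes are named up to 3 per direction. Others, such as Dnmt3a, Eed, Tet2 and Sirt6 in the mean of both genotypes, were named after their values were seen. The genes and lists were chosen with earlier results of these data known. Promoters are from RefSeq (GRCm38.p6). The alternatives were another scaling or none, a pseudocount of 50, the mean of probe sets, a background filter, no trend, a replicate block, day 20 arrays only, only the groups compared, each array left out and, added after seeing the data, each probe set as its own feature.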

Additional observations from a re-analysis of the deposited data

How the results depend on the processing

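The count of 12 members between hair germ and bulge over both genotypes was 11 with quantile normalization, 11 without further scaling, 12 with log2 of intensity plus 50, 11 with the mean of probe sets and 13 with genes above background only. It was 4 without the intensity trend, 2 with day 20 arrays only and 5 to 12 with an array left out. These counts are not all of the same genes. Of the 11 with quantile normalization 10 were among the 12, and of the 4 without the trend 3 were, with Sirt5 the other in both. The mean of probe sets kept 10 of the 12 and the background filter kept all 12, each with Ezh1 added. Some genes counted with an array left out were also outside the 12. The fit with replicate number as a block gave 11, of which 10 were among the 12, with Cbx7 (adjusted p = 0.0564) and Suz12 (0.0665) lost and Ezh1 (0.0165) gained. Deviations of same-numbered samples from their group means correlated between -0.03 and 0.08, and no label pairs the samples. Replicate number coincides with the sex-linked signals, so the block also adjusts for these. In WT the count of 3 became 1 with quantile normalization, 5 with the block, 0 without the trend, 0 with day 20 arrays, 0 with only the groups compared, and 0 to 4 with an array left out. In Runx1 iTG the count of 4 became 2 with quantile normalization, 2 with the mean of probe sets, 1 without the trend, 0 with day 20 arrays, 1 with only the groups compared, and 1 to 3 with an array left out; with the block Sirt5 had an adjusted p of 0.0507. The genotype and interaction counts were 0 under every alternative. Day 20 arrays leave 1 array in each Runx1 iTG group, which is then assumed to vary like the others. Quantile normalization moved the median of all genes in the hair germ difference from -0.09 to 0.03.

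With 1 value per gene, Uhrf1 passed under all alternatives, at 1.49 to 2.89, whereas its second probe set on its own did not (0.52, adjusted p = 0.198). Signs turned in genotype differences that did not pass, and the cause was not tested. Setd5 in bulge was -0.013 and Hdac10 in hair germ 0.28 with the mean of probe sets. With day 20 arrays Cbx7 was -0.29 in bulge, -0.069 over both populations and 0.44 in the interaction. With an array left out, Ezh2 ranged from -0.23 to 0.63 in bulge, -0.30 to 0.086 in hair germ, -0.17 to 0.26 over both populations and -0.73 to 0.13 in the interaction. Cbx7 ranged from -0.29 to 0.94 in bulge, -0.24 to 0.55 in hair germ, -0.065 to 0.55 over both and -0.79 to 0.44 in the interaction.

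Over all genes, the counts past the threshold moved by more than 1.5 times in these cases: the hair germ difference over both genotypes (3326) to 2043 without the trend, 1596 with day 20 arrays and 2036 with an array left out; that in WT (1261) to 411, 720 and 332, and 752 with only the groups compared; that in Runx1 iTG (1775) to 708, 361 and 637, and 832. The genotype counts (4, 5 and 9) ranged from 0 to 29, and the interaction from 0 to 3.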
